A study of Mus musculus with 9 samples.

Results

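RNA of late-generation G4 Terc-/- embryonic stem cells (ESCs) was compared with RNA of wild-type (WT) ESCs, copy by copy, over the repeats of the mouse genome. The 6 libraries compared, of 9 in the series, were the 3 named G4 and the 3 named Control, which were taken as WT. Every library had an estimated read count for each of 623916 repeat copies placed on the mm10 assembly. Of these, 13278 copies passed the filter on low counts and were tested, and they held 65% of the counts. Of all copies 78.5% had fewer than 5 counts over the 6 libraries together, so most single copies could not be compared at this depth, and sums over copies of a family were tested beside them.

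WT ESCs carried Terc, the gene for the RNA template of telomerase, and G4 ESCs lacked it on both alleles. Both were of the C57BL/6 strain, and the G4 line came, per the methods of the study, from blastocysts of intercrossed G3 Terc-/- mice. Feeder cells had been removed before RNA was taken, and total RNA was made into libraries with a TruSeq RNA kit that does not mark strand. The G1 Terc-/- libraries of the series entered the filter on low counts, the scaling and the shared estimate of the spread. They were not part of the difference between G4 and WT. Line, genotype and generation coincide in this design and cannot be told apart. Nothing in the labels makes the 3 libraries of a group separate cultures, and the number of biological replicates per line in the study's methods is another, so p-values reflect library-to-library spread alone, which may be technical (n = 3 per group).

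Repeats of a family are remnants of insertions made at different times. Long interspersed elements such as L1 encode the machinery for their own copying, short interspersed elements (SINEs, here Alu, which in mouse is B1, with B2, B4, ID and MIR) borrow that machinery, and endogenous retroviruses (ERV1, ERVK, ERVL and ERVL-MaLR) have an internal part between long terminal repeats (LTRs) that hold promoters. A copy gathers mutations after insertion, so its divergence from the family consensus is a rough measure of age, and only long copies of low divergence can still be intact. In mouse ESCs such copies are kept down by histone H3K9 methylation and DNA methylation, and MERVL with its LTR MT2_Mm is known for its expression in embryos at the 2-cell stage.

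Library totals lay between 918879 and 1073243 counts. On the log2 scale, pairs of libraries lay at a mean root-mean-square distance of 0.63 within WT, of 0.598 within G4 and of 1.31 across the groups. No level of the deleted gene can be given, since 0 copies lie in Terc, and the groups rest on the labels. Genes were read through repeat copies in their exons, in CPM (counts scaled to a fixed library total), and 1160 of 4429 such genes were higher and 964 lower in G4 (48% called at an adjusted p under 0.05, edgeR). Of 16 ESC markers 7 could be read, 6 were tested and 5 rose, with a summed level of 7960 to 8500 CPM in WT and 24600 to 28900 CPM in G4. Of 14 markers of primitive endoderm, the extra-embryonic layer next to the epiblast, 6 could be read, and their summed level was 4430 to 4570 CPM in WT and 138 to 176 CPM in G4. Of the 4 tested, 3 fell and Sparc rose. The 4 readable markers of feeder fibroblasts summed to 39.8 to 67.3 CPM in WT and 94.7 to 106 CPM in G4. Of these Col1a1 was called higher in G4 and Pdgfrb was not called (log2 change 0.22, edgeR adjusted p = 0.714). Thy1 and Dcn were too low to be tested, with Dcn at 0 in all libraries but WT 3 (1.92 CPM). The part of these cell markers in the results below was not tested, and in bulk RNA fewer cells of a type and less RNA per cell cannot be told apart.

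A few LTR copies held the annotated start of a gene, and their sequences are shown because here the RNA of the copy and the start of a gene coincide. Of 32851 RefSeq windows of the 250 bases before a gene start, 331 lay inside a single repeat copy (at least 240 bases covered), and 171 of these in an LTR. Of those LTR windows 10 held a tested copy, of which 5 were higher and 1 lower in G4, where 29.5% of all tested LTR copies were higher and 23.9% lower. The 4 printed below run 5′ to 3′ on the strand of the gene and come from RefSeq (GRCm38.p6, whose chromosomes are those of mm10). Capitals mark the motifs TATAA, which is the core of a TATA box, and AATAAA, which is a polyadenylation signal, searched on both strands, so that TTATA and TTTATT are marked as well, and where TTATA and TATAA overlap the run of capitals holds both.
Arih2, MT2_Mm copy of ERVL, chr9:108653682-108653931, minus strand: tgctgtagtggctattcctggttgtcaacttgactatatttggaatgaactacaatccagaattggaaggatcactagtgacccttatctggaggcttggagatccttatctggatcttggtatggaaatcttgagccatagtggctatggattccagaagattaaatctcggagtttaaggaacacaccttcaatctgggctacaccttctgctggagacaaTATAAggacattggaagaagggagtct
C330004P14Rik, RLTR9E copy of ERVK, chr10:15791527-15791776, plus strand: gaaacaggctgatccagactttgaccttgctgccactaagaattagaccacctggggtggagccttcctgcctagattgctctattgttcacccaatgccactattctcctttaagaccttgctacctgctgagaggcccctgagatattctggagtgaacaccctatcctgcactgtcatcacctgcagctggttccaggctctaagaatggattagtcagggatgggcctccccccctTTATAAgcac
Platr14, RLTR16B_MM copy of ERVK, chr2:104559209-104559458, plus strand: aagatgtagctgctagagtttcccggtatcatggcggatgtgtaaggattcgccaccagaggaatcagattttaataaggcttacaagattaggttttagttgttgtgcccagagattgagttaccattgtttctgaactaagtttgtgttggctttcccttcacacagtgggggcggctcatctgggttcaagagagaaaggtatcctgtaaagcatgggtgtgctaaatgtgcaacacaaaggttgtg
Gm34581, ERVB7_1-LTR_MM copy of ERVK, chr12:50980463-50980712, plus strand: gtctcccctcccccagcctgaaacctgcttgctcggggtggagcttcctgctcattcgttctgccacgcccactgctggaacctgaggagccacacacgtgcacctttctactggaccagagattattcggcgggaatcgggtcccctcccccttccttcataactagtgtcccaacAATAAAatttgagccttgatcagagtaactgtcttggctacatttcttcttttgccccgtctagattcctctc

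The MT2_Mm copy at the start of Arih2, the gene of a ubiquitin ligase, stood at 1.04, 3.14 and 0.962 CPM in WT and at 31.9, 51.3 and 44.1 CPM in G4. All 3 G4 libraries were far above WT, by 4.56 ± 0.49 SE on the log2 scale (edgeR adjusted p = 3.41e-08), and TATAA began 27 bases before the gene start. The RLTR16B_MM copy of Platr14, a long non-coding RNA of pluripotent cells, stood at 193, 223 and 229 CPM in WT and at 988, 1140 and 1060 CPM in G4 (log2 change 2.30 ± 0.11 SE, edgeR adjusted p = 2.41e-15). The RLTR9E copy of C330004P14Rik rose from 5.3 ± 3.89 to 31.5 ± 5.61 CPM (SD, n = 3), a log2 change of 2.53 with an SE of 0.41. The ERVB7_1-LTR_MM copy of Gm34581 stood at 23.7, 12.3 and 16 CPM in WT and at 3.3, 3.07 and 4.98 CPM in G4, a log2 change of -2.16 with an SE of 0.45. The groups did not overlap in any of these 4 copies, and the other 2 called LTR copies, at the starts of Gm10685 (on the opposite strand) and Mageb16, had log2 changes of 2.87 and 1.98. Over all 32851 windows TATAA was found in 22.8% and AATAAA in 18.1%, so the motifs are common. The windows of Platr14 and Gm34581 held no TATAA and those of Arih2, C330004P14Rik and Platr14 no AATAAA.

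Over single copies the comparison was even, with 2824 copies higher and 2824 lower in G4 of 13278 tested (21.3% each way, 42.5% in all, adjusted p under 0.05 by edgeR's quasi-likelihood test). A fold over 2 was reached by 4063 of the called copies (30.6% of those tested), and in 5411 (40.8%) the 3 libraries of each group did not overlap. The classes were not tested against each other. Of 3850 tested LTR copies 29.5% rose and 23.9% fell, of 6518 SINE copies 17.2% and 19.9%, of 2395 LINE copies 19.7% and 19.8%, and of 515 DNA transposon copies 17.9% and 26%. LTR elements held 33.1, 33.2 and 33.3% of the counts in WT and 30.2, 30.9 and 31.0% in G4, so that the class with most copies called higher took a smaller share of the RNA. SINEs rose in share from 47.4% ± 0.155 to 49.6% ± 0.219 and LINEs from 15.7% ± 0.157 to 16.2% ± 0.218, and DNA transposons went from 3.67% ± 0.031 to 3.48% ± 0.030 (SD, n = 3). The groups did not overlap in any class, and each had p = 0.1 by a two-sided exact permutation test, the smallest that 3 against 3 libraries allow.

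Within the LTR class internal parts and LTRs were summed apart. Internal sequence of ERV1 went from 60380 ± 713.1 CPM in WT to 27070 ± 411.5 CPM (SD, n = 3) in G4 (log2 ratio of means -1.16), while the LTRs of ERV1 were at 16330 ± 127.5 and 14520 ± 210.6 CPM (-0.17). The internal sum of ERV1 includes an MMERGLN-int copy in exons of Gm42047 that held most counts of the longest ERV1 copies. That sum was not recomputed without it. For ERVK the internal parts were at 98390 and 75140 CPM (-0.39) and the LTRs at 57970 and 63990 CPM (0.14). ERVL differed in direction, with internal parts at 4594 and 8584 CPM (0.90) and LTRs at 19000 and 22410 CPM (0.24). Both parts of ERVL-MaLR, the non-autonomous relatives of ERVL, had higher means in G4 (0.23 for internal parts and 0.13 for LTRs). As shares of each library's counts the groups did not overlap in any of these sums.

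Of 30 families tested as sums 6 were higher and 13 lower in G4 (63.3% called, edgeR). The largest rises were of the sparse families MuDR (2.38), MULE-MuDR (2.19) and Dong-R4 (1.16), with G4 means of 392.9, 407.7 and 24.82 CPM. ERV1 stood at 76370, 76150 and 77610 CPM in WT and at 41320, 41170 and 42270 CPM in G4 (log2 change -0.88 ± 0.03 SE, adjusted p = 1.61e-16). ERVL stood at 23840, 22780 and 24140 CPM in WT and at 32280, 30460 and 30230 CPM in G4 (0.39 ± 0.03 SE, adjusted p = 1.26e-09). Both changes were far larger than the spread between libraries. ERVK fell (-0.17) and ERVL-MaLR rose (0.15). Summed over copies with whole values alone, ERV1 (0.13, adjusted p = 0.00222) and ERVK (0.19, adjusted p = 0.00207) were called higher, the opposite direction. Of the smaller families Gypsy (-0.38), ID (-0.18), CR1 (-0.17), MIR (-0.14) and hAT-Charlie (-0.11) fell, the last with an adjusted p of 0.0735 without G4 2. Outside exons none of these 5 was called (Gypsy -0.03, ID -0.04, CR1 -0.22, MIR -0.03, hAT-Charlie -0.09), and far from genes ID (0.62) and MIR (0.40) were called higher. The sums of L1 (-0.00), Alu (0.01), B4 (-0.03), L2 (-0.01) and TcMar-Tigger (-0.07) were not called, but scaling by library totals gave calls for Alu (0.06) and L1 (0.05), and leaving out WT 2 gave calls for L1 (-0.06), B4 (-0.09) and TcMar-Tigger (-0.13). TcMar-Tigger also passed without G4 1 (-0.12), with the G4 and WT libraries alone (-0.12) and with whole values (-0.16). B2 rose by 0.12 (adjusted p = 0.015), with an adjusted p of 0.307 without WT 3 and 0.0739 without G4 1. Its call was also lost with the G4 and WT libraries alone (0.07, adjusted p = 0.18) and outside exons (0.15, adjusted p = 0.309). The same held with whole values (0.09, adjusted p = 0.227) and without its leading copy (0.11, adjusted p = 0.0892). The fall of hAT-Tip100 (-0.71) rested on a FordPrefect copy on chromosome 17 with 51.6% of its counts, and without that copy the value was -0.04 (adjusted p = 0.563).

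Under the even sum of L1, copies of different divergence moved in opposite directions. L1 copies 2 to 5% diverged from their consensus, of which L1Md_T held 72.9% of the counts, stood at 28370, 27260 and 28550 CPM in WT and at 23170, 20700 and 21420 CPM in G4 (log2 change -0.37 ± 0.04 SE, edgeR adjusted p = 4.85e-07). L1 copies of 5 to 10%, led by L1_Mus1, stood at 29270, 26890 and 28390 CPM in WT and at 34340, 32900 and 33090 CPM in G4 (0.25 ± 0.04 SE, adjusted p = 2.41e-05). The groups did not overlap in either bin, and the bins moved apart. Copies under 2% also fell (-0.28), those of 10 to 15% (0.22) and 15 to 20% (0.13) rose, those of 20 to 30% were not called, and those of 30% and over fell (-0.14). Of the single L1 copies tested at 2 to 5% (584) 9.25% rose and 22.3% fell, and at 5 to 10% (505) 27.9% rose and 18% fell. Over all tested copies 21.3% went each way, so the share of falls at 2 to 5% was near the background and the share of rises below it.

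Summed over all copies, ERVK turned at the same divergence. In copies with whole values alone, its bins under 5% had ratios of the opposite sign, given below. Its copies of 2 to 5%, in which MMETn-int held 59.3% and IAPEz-int 21.9% of the counts, stood at 62730, 58060 and 59410 CPM in WT and at 37870, 38620 and 38950 CPM in G4 (-0.64 ± 0.04 SE, adjusted p = 1.95e-11). Those under 2% fell likewise (-0.67), whereas copies of 5 to 10% rose from 18700 to 23030 CPM (0.30) and the 3 bins from 10 to 25% rose by 0.13 to 0.21. Those of 25 to 30% fell again (-0.22). Among single copies 21.5% rose and 48.6% fell of 358 at 2 to 5%, and 42.6% rose and 22.1% fell of 258 at 5 to 10%, against 21.3% each way over all tested copies. ERV1 fell in all 6 bins under 25% and rose at 25 to 30% (0.27) and at 30% and over (0.22), but 85% of the counts of its 2 to 5% bin came from a single MMERGLN-int copy in exons of Gm42047.

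**Figure D1:**
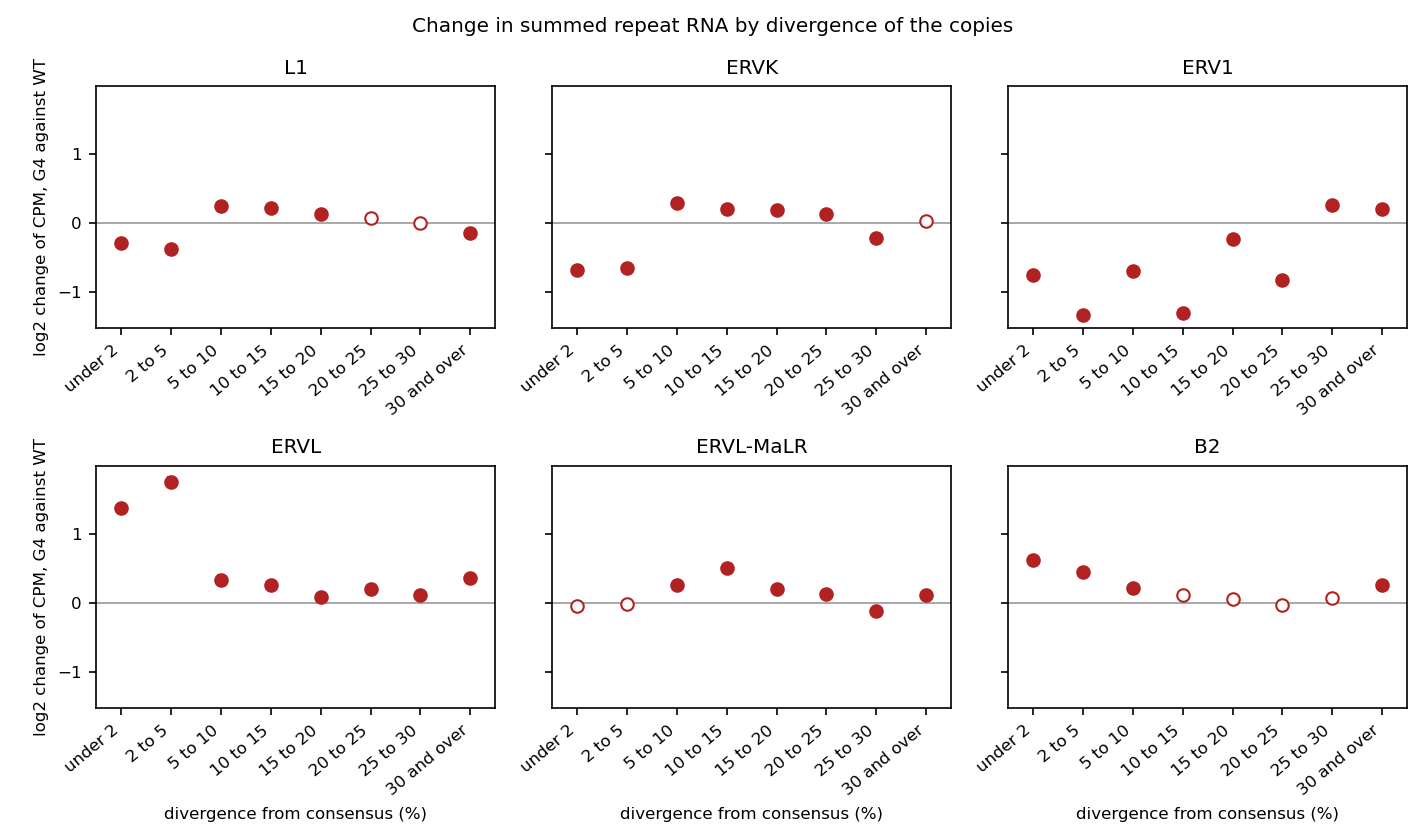
Log2 change of summed CPM, G4 against WT, on the y axis for copies of 6 repeat families binned by percent divergence from the consensus on the x axis, with bars of 1 SE that are mostly smaller than the points. Filled points are called (adjusted p under 0.05) and open ones are not; L1 and ERVK lie below 0 under 5% and above 0 from 5 to 20%, and ERVL is highest under 5%.

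ERVL showed the opposite slope. Copies under 2%, of which MERVL-int held 83.5% and MT2_Mm 16.5%, stood at 2300, 2170 and 2182 CPM in WT and at 6208, 5749 and 5393 CPM in G4 (1.38 ± 0.05 SE, adjusted p = 1.45e-13). Copies of 2 to 5% stood at 306.5, 261.7 and 305.4 CPM in WT and at 1016, 1006 and 952.9 CPM in G4 (1.76 ± 0.07 SE, adjusted p = 2.99e-13). All G4 libraries were more than 2-fold above all WT libraries in both bins, and of 69 tested copies under 2% 63.8% rose and 8.7% fell, against 21.3% each way over all tested copies. The other 6 bins of ERVL rose by 0.09 to 0.36. In ERVL-MaLR the largest rise was at 10 to 15% (10720 to 15210 CPM, 0.51), and its bins under 2% (-0.04) and of 2 to 5% (-0.01) were not called. B2 copies under 2% rose by 0.62 and those of 2 to 5% by 0.45, while Alu copies under 2% (-0.07) and of 2 to 5% (0.05) were not called. In all, 39 of 131 bins rose and 42 fell (61.8% called).

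The ratio of each bin to the other copies of its family, taken within each library, tested whether the bin moved differently from the rest and is free of library scaling. Of 109 such ratios 44 rose and 32 fell (69.7% called, limma). Copies of 2 to 5% held 19.3, 20 and 19.8% of the L1 counts in WT and 15.5, 15 and 15.4% in G4 (log2 ratio change -0.44, SE 0.03, adjusted p = 1.77e-06), and copies of 5 to 10% went from 19.7% ± 0.138 to 23.5% ± 0.502 (0.32). In ERVK the share of copies of 2 to 5% went from 38.4% ± 0.593 to 27.7% ± 0.424 (-0.71) and that of 5 to 10% from 12.0% ± 0.214 to 16.5% ± 0.335 (0.55). In ERVL the share under 2% was 9.65, 9.53 and 9.04% in WT and 19.2, 18.9 and 17.8% in G4 (1.14 ± 0.05 SE, adjusted p = 3.33e-07), and that of 2 to 5% went from 1.23% to 3.20% (1.40).

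The other named ratios, the largest by size, were of hAT-Tip100 at 15 to 20% (-1.38), 25 to 30% (0.77) and 30% and over (1.30), of ERV1 at 25 to 30% (1.23), 30% and over (1.16) and 2 to 5% (-0.70), and of ID at 30% and over (0.74). Without the copy with most counts in a bin, ERV1 at 2 to 5% had 0.07 and hAT-Tip100 at 25 to 30% had -0.22. That of ID at 30% and over was 0.10 (adjusted p = 0.0587) without its leading copy and -0.04 outside exons. Read sharing also bears on the bins of low divergence: of the tested copies under 2% only 6.3% had whole-number counts in all libraries, against 78.9% at 25 to 30%. With sums limited to copies of whole values, the ratio was -0.09 (adjusted p = 0.052) for L1 at 2 to 5%, 0.15 for L1 under 2%, 0.44 for ERVK at 2 to 5% and 0.41 for ERVK under 2%, so that 3 of these 4 values had the opposite sign. Such copies held 15.2% of the L1 counts and 2.56% of the ERVK counts at 2 to 5%. For ERVL-MaLR at 10 to 15% the ratio was 0.42 over all copies and 0.04 (limma adjusted p = 0.146) with whole values.

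Long copies separated from the rest in the same families. L1 copies of 6000 bp and over, near the full length of an L1, stood at 21300, 20730 and 21280 CPM in WT and at 15640, 14630 and 14960 CPM in G4 (log2 change -0.49 ± 0.03 SE, edgeR adjusted p = 7.16e-11). Every G4 library was below every WT library, and L1Md_T held 74.5% of the counts. Of the 468 tested copies 8.55% rose and 21.8% fell, against 21.3% each way over all tested copies, so that rises were fewer than in the background while falls were near it. The 3 bins between 400 and 6000 bp rose by 0.09 to 0.12, with overlapping groups at 3000 to 6000 bp, and the 3 shorter ones were not called (-0.02 to 0.02).

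ERVK copies of 6000 bp and over stood at 8923, 8467 and 8618 CPM in WT and at 3482, 3413 and 3421 CPM in G4 (-1.33 ± 0.04 SE, adjusted p = 4.68e-18). IAPEz-int, the internal part of intracisternal A particles, held 83.2% of these counts, and of the 102 tested ERVK copies of this length 12.7% rose and 54.9% fell, against 21.3% each way over all tested copies. The bins of 3000 to 6000 bp (-0.35) and 1000 to 3000 bp (-0.60) also fell, while that of 400 to 1000 bp rose (32800 to 37670 CPM, 0.20). ERVL copies of 3000 to 6000 bp, with 88.7% of counts from MERVL-int, stood at 2176, 2145 and 2107 CPM in WT and at 5574, 5095 and 4811 CPM in G4 (1.27 ± 0.05 SE, adjusted p = 3.13e-15). Those of 1000 to 3000 bp rose by 0.90 and the shorter bins by 0.11 to 0.43. ERV1 copies of 6000 bp and over fell by 1.26, with 78.6% of their counts from the Gm42047 copy. Over 113 length bins 23 rose and 36 fell (52.2% called).

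**Figure D2:**
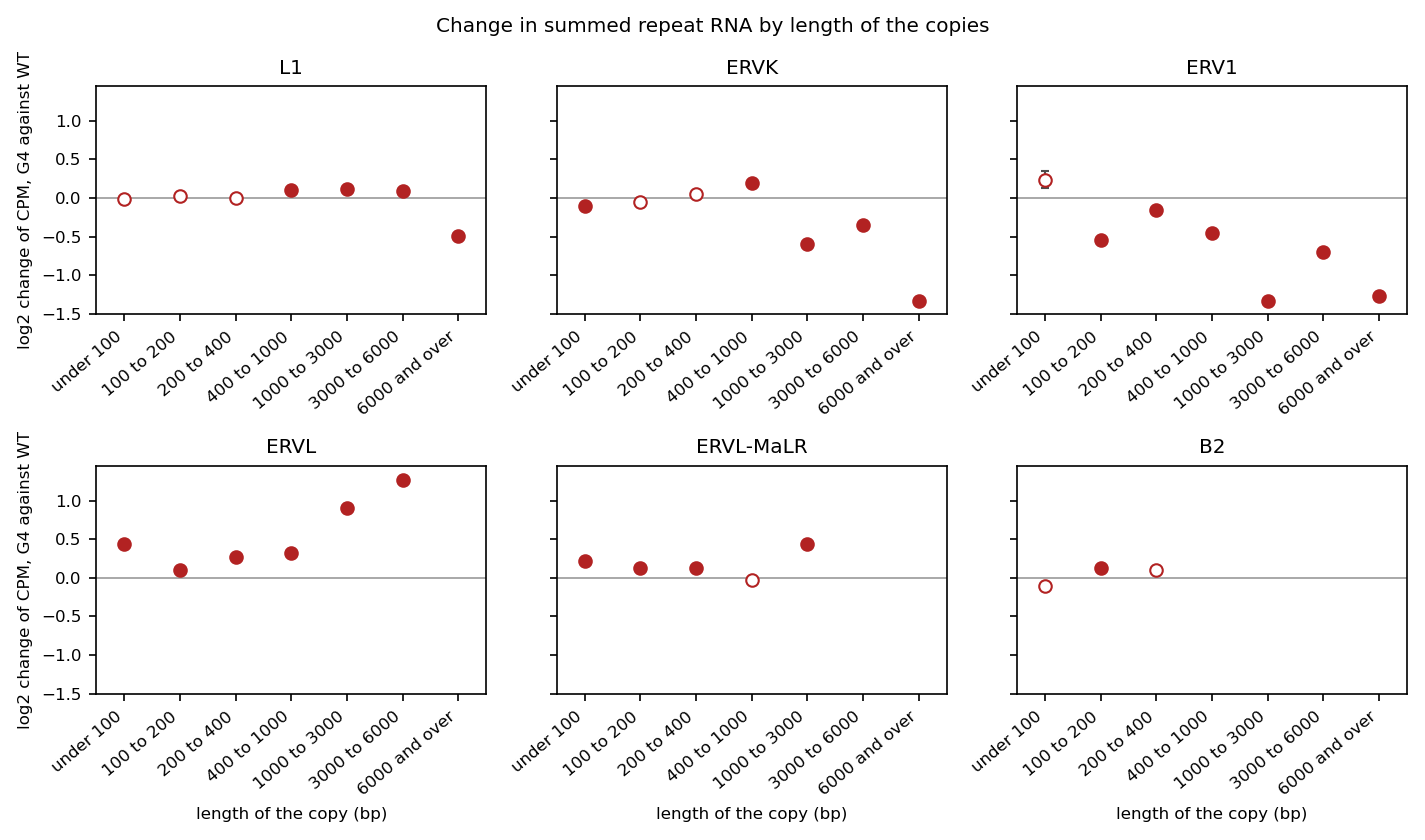
Log2 change of summed CPM, G4 against WT, on the y axis for copies of 6 repeat families binned by length in bp on the x axis, with bars of 1 SE and filled points for called bins. The bins of 6000 bp and over are the lowest of L1 and ERVK, and the bin of 3000 to 6000 bp is the highest of ERVL.

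Of 86 ratios of a length bin to the rest of its family 30 rose and 24 fell (62.8% called, limma). Copies of 6000 bp and over held 14.5, 15.2 and 14.7% of the L1 counts in WT and 10.4, 10.6 and 10.7% in G4 (-0.55 ± 0.03 SE, adjusted p = 1.02e-06), and 5.54% ± 0.044 and 2.47% ± 0.024 of the ERVK counts (-1.21 ± 0.02 SE, adjusted p = 5.8e-09). In ERVL the share of copies of 3000 to 6000 bp went from 9.09% ± 0.347 to 16.6% ± 0.681 (1.00 ± 0.05 SE). In ERVL-MaLR copies of 1000 to 3000 bp gained (0.33), but not among copies far from genes (0.01, adjusted p = 0.916). The remaining named ratios were of ERV1 under 100 bp (1.13), at 200 to 400 bp (0.80) and at 6000 bp and over (-0.63), of Gypsy at 400 to 1000 bp (-0.91) and 100 to 200 bp (0.76), of hAT-Tip100 under 100 bp (0.82) and of MIR under 100 bp (-0.60). Outside exons the ratio of MIR under 100 bp was -0.06 (adjusted p = 0.214), and with whole values that of ERV1 under 100 bp was 0.11 (adjusted p = 0.494). With whole values alone the ratio of L1 at 6000 bp and over was 0.05 (adjusted p = 0.527) and that of ERVL-MaLR at 1000 to 3000 bp was -0.11, and without the leading copy that of ERV1 at 6000 bp and over was 0.02 and that of Gypsy at 100 to 200 bp -0.51.

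**Figure D3:**
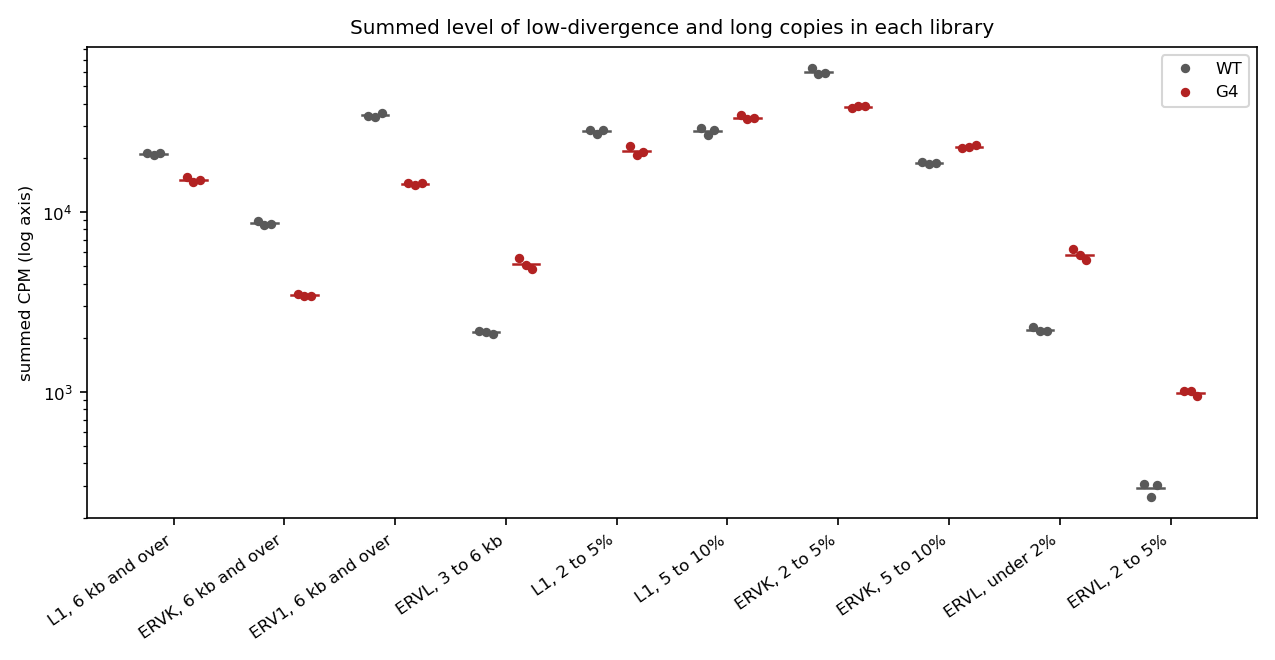
Summed CPM (log axis) of 10 bins of long or little diverged copies, drawn as points for single libraries and lines for means, WT in grey and G4 in red (n = 3 each). The groups do not overlap in any of the 10 bins; ERVK copies of 6000 bp and over lie at 8467 to 8923 CPM in WT and 3413 to 3482 CPM in G4.

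Divergence and length were then crossed, an analysis chosen after the values above were seen. Of 81 cells of family, divergence and length 23 rose and 30 fell (65.4% called, edgeR). L1 copies that were both under 5% diverged and 6000 bp or longer stood at 15960, 15790 and 16220 CPM in WT and at 10610, 9690 and 9936 CPM in G4 (-0.67 ± 0.04 SE, adjusted p = 1.75e-10). Copies of the same length but 5 to 20% diverged were at 5114 and 4999 CPM (-0.03, adjusted p = 0.459), and copies under 5% but shorter than 1000 bp at 6111 and 5939 CPM (-0.04, adjusted p = 0.472). The fall of L1 was thus measured in long copies of low divergence, with a smaller one at 1000 to 6000 bp (-0.15), and L1Md_T held 88.1% of the counts in the long, little diverged cell, 16.6% of them from a single copy on chromosome 12. L1 copies of 5 to 20% and 1000 to 6000 bp rose (22280 to 26290 CPM, 0.24).

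In ERVK the copies under 5% fell at every length, by 1.32 at 6000 bp and over, by 0.61 at 1000 to 6000 bp and by 0.44 below 1000 bp. ERVK copies of 5 to 20% rose at 1000 to 6000 bp (0.24) and below 1000 bp (0.24) and fell at 6000 bp and over (279.7 to 82.71 CPM). ERVL copies under 5% rose alike as internal parts of 1000 to 6000 bp (1876 to 5115 CPM, 1.45) and as pieces under 1000 bp (633 to 1660 CPM, 1.39). ERVL copies of 20% and over rose by 0.21 below 1000 bp. In ERVL-MaLR the largest rise was of copies of 5 to 20% and 1000 to 6000 bp (6546 to 9842 CPM, 0.59), in which MTA_Mm-int, ORR1A2-int and ORR1A0-int led.

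Family bins mix subfamilies, so copies below the median divergence of their own subfamily were set against the other copies of that subfamily, a test also chosen after the values were seen. Of 385 subfamilies the share of the less diverged copies rose in 79 and fell in 105 (47.8% called, limma). In L1Md_T these copies held 52.7, 53.8 and 54.2% of the counts in WT and 44, 43.9 and 43.5% in G4 (log2 ratio change -0.56, SE 0.06, adjusted p = 8.64e-05). The less diverged copies lost share within L1Md_T itself, but the difference was not called in L1Md_A (0.03, adjusted p = 0.786), L1Md_Gf (0.00) or L1Md_F2 (0.07). In IAPEz-int (-0.32) and MERVL-int (-0.32, adjusted p = 0.0133) the less diverged copies also lost share, although most called copies of the former fell and of the latter rose. MMERVK10C-int went from 67.9% to 32.0% (-2.16) and RLTR45-int from 87% to 68.4% (-1.62), whereas MMETn-int went from 67.6% to 88.5% (1.88).

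By length, 76 of 369 subfamilies gained and 71 lost share in copies shorter than their own median (39.8% called, limma). The shorter copies of ETnERV-int went from 94.0% to 66.1% (-3.01) and those of RLTR45-int from 82.7% to 44.7% (-2.56). Those of MERVL-int went from 13.5% ± 0.508 to 22.7% ± 1.17 (0.91) and those of L1Md_T from 14.8% to 17.3% (0.26). These subfamilies were picked after their values were seen.

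SINE copies far from genes rose while those in introns were not called. Far from genes, more than 5000 bp from any GENCODE model, Alu copies stood at 2269, 1982 and 2026 CPM in WT and at 3516, 3359 and 3303 CPM in G4 (log2 change 0.70 ± 0.06 SE, edgeR adjusted p = 2.75e-06). B2 copies there stood at 2055, 1933 and 1881 CPM in WT and at 3591, 3403 and 3189 CPM in G4 (0.80 ± 0.05 SE, adjusted p = 9.38e-07). No G4 library came near the WT range in either. B4 (1239 to 1857 CPM, 0.58), ID (0.62) and MIR (0.40) far from genes rose as well, and the most abundant copy held 0.974% of the far Alu counts and 1.18% of the far B2 counts. Copies with whole values held 89.3% of the far Alu counts and 85.5% of the far B2 counts. In introns, by contrast, none of the sense and antisense sums of Alu, B2, B4, ID and MIR was called (-0.08 to 0.18), and the groups overlapped in all 10, with G4 1 above the other 5 libraries for Alu, B2 and B4. That library held 39.96% of its counts in introns, against 35.22 and 35.49% in the other G4 libraries and 33.55 to 36.24% in WT.

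Far from genes, ERVL and ERV1 moved further than any SINE family. ERVL stood at 960.6, 936.9 and 980.2 CPM in WT and at 3269, 2830 and 2817 CPM in G4 (1.63 ± 0.07 SE, adjusted p = 1.07e-08), with MERVL-int at 46.5% of the counts. ERV1 fell from 13840 to 5179 CPM (-1.42), with 18.2% of the counts from an RLTR1B-int copy on chromosome X, and ERVK from 39680 to 24120 CPM (-0.72). ERVL-MaLR rose by 0.28 and L1 was not called (0.11, adjusted p = 0.152), but scaling by library totals gave 0.16 (adjusted p = 0.00786). With families of far copies tested alone, L1 was called (0.11, edgeR adjusted p = 0.00817). Sums within 5000 bp of a gene rose for L1 (0.25), ERVL-MaLR (0.51) and ERVL (0.59) and fell for ERVK (-0.49) and ERV1 (-0.43). Of 137 sums by family and position 28 rose and 35 fell (46% called).

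Single copies far from genes also spread more widely, with an interquartile range of log2 fold changes of 2.40 over 997 tested copies against 1.33 over all tested copies. Of these 25.2% rose and 30.4% fell. In introns 19.5% rose and 17.7% fell of 3663, in exons 20.5% and 21.7% of 7243, and near genes 27.1% and 21.7% of 1375. Only 17% of the tested copies far from genes had whole values in all libraries, against 79.6% in exons. The share of all counts from copies far from genes went from 8.23% ± 0.075 to 6.87% ± 0.055 (SD, n = 3), and exons held 48.3% ± 1.39 and 47.8% ± 2.61.

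**Figure D4:**
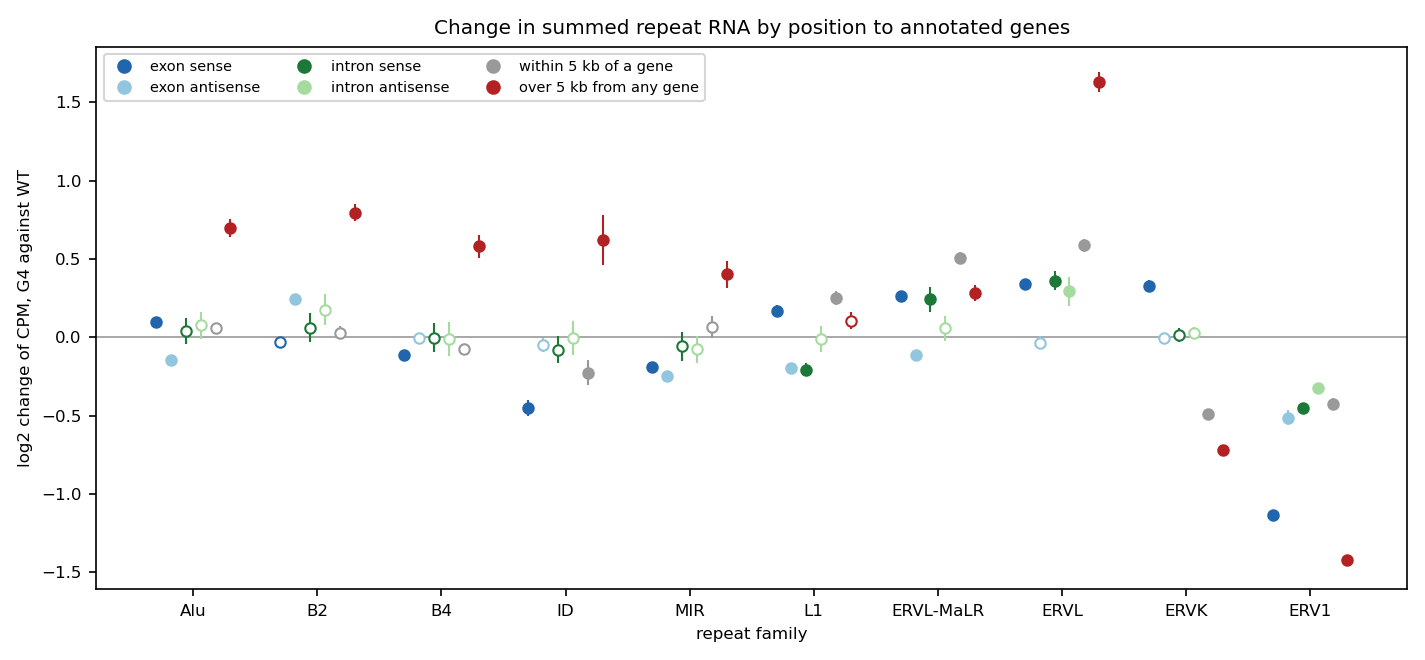
Log2 change of summed CPM, G4 against WT, on the y axis for 10 repeat families on the x axis, split by the place of the copies relative to annotated genes (colours), with bars of 1 SE and filled points for called sums. Copies over 5 kb from any gene (dark red) are the highest of each SINE family and of ERVL and the lowest of ERVK and ERV1.

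The strand of the copy alone made little difference over single copies, with 1332 of 6400 plus-strand copies higher and 1317 lower, and 1492 and 1507 of 6878 minus-strand copies. Of 22 family ratios of plus to minus copies 7 rose and 9 fell (72.7% called, limma). The shares were 53.6, 53 and 53.1% plus in WT and 57.1, 57 and 57.7% in G4 for ERVK (log2 ratio change 0.23), and 59.1, 58.8 and 59.8% and 55.2, 55.5 and 55.2% for ERV1 (-0.23). For L1 the plus share went from 48.3% to 49.8% (0.09), for Alu from 47.4% to 45.9% (-0.09), for B4 from 47.5% to 49.3% (0.10) and for MIR from 51.3% to 49.7% (-0.09, adjusted p = 0.0779 at -0.04 outside chromosome 6). Gypsy (1.08), hAT-Tip100 (-0.54), CR1 (-0.45) and L2 (-0.34) had larger changes, that of CR1 being -0.05 (adjusted p = 0.704) outside exons. Several ratios changed when the copy with most counts was left out. Without it L1 had 0.01 (adjusted p = 0.622), Alu -0.02 (adjusted p = 0.116), MIR 0.04, ERV1 0.34 and hAT-Tip100 0.49, and with whole values ERVK had 0.03 (adjusted p = 0.127) and Alu 0.06.

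Orientation to the gene was read from the annotation, since reads of this kit do not give strand. Of 35 sense to antisense ratios 9 rose and 12 fell (60% called, limma). L1 copies in exons that lay in the sense of the gene held 42.7, 42.3 and 41.9% of such counts in WT and 47.8, 49.2 and 48.5% in G4 (0.36 ± 0.03 SE, adjusted p = 1.35e-05). Among the named families the sense share in exons also rose for ERVL-MaLR (35.4% to 41.6%, 0.37), ERVL (0.37), ERVK (0.34), L2 (0.27), Alu (0.24) and MIR (0.05). It fell for ERV1 (92.3% to 88.6%, -0.62), hAT-Tip100 (-0.42), CR1 (-0.41), ID (-0.40), B2 (62.9% to 58.3%, -0.27), hAT-Charlie (-0.15) and B4 (-0.11). Gypsy fell by 0.42, with an adjusted p of 0.0538 without G4 1 and 0.0587 without G4 2. In introns L1 sense copies lost share (39.4% to 36.3%, -0.19, adjusted p = 0.0211), and there the sum of sense copies fell (26510 to 23010 CPM, -0.20) while that of antisense copies was not called (-0.01).

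Most subfamilies held copies called in both directions. Of 319 subfamilies with at least 5 tested copies, 240 had copies called in both directions, 45 only higher, 28 only lower and 6 none. Over all tested copies 21.3% were called each way. L1Md_T had 36 copies higher and 120 lower of 586, a share of falls near that background with fewer rises, and IAPEz-int 24 and 152 of 240, MERVL-int 51 and 4 of 69 and RLTR45-int 42 and 2 of 53. L1_Mus1 (55 and 13 of 112) and MTA_Mm-int (45 and 11 of 93) leaned to higher calls, whereas B3, with 97 and 113 of 626, and ID_B1, with 122 and 118 of 558, were even. Neighbours of different families moved together. Pairs were of called copies next to each other along the chromosome, from different families and within 10000 bp. Outside exons 479 of 486 such pairs (98.6%) had the same direction, and in exons 888 of 903 (98.3%). Pairs within a single gene were not set apart.

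The single copies named from here on had the 2 largest rises and falls of their family among called copies with a mean of at least 50 counts a library in the higher group and no overlap between groups. Of their L1 and LTR copies, only MuRRS-int, MT2A, ORR1A0 and the MTA_Mm copy on chromosome 9 had whole-number counts in all libraries. Of their SINE copies, those in Calcoco2 and Slc17a5 had not. Where counts were not whole, fold bounds and counting intervals do not cover how reads with several placements were divided. An L1Md_F3 copy on chromosome 7 from 11305795 to 11306202, which lies 175 bp downstream of Zscan4e, a gene of the 2-cell-like state, was at 0 counts in all WT libraries and at 43, 57.3 and 48.7 CPM in G4, at least 49.4-fold higher against a floor of 3 counts over the group. The RLTR6B_Mm copy that adjoins it, from 11305243 to 11305794, stood at 2.34, 0 and 0 CPM in WT and at 39.7, 69.6 and 51.9 CPM in G4. Both copies rose in all 3 G4 libraries. The 2 readable genes of the 2-cell-like list, Tcstv1 and Usp17la, were too low to be tested, with a summed level of 0 to 2.09 CPM in WT and 7.2 to 16.5 CPM in G4.

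A MERVL-int copy in an intron of Bola1, on chromosome 3 from 96200863 to 96206188, stood at 3.13, 4.77 and 1.47 CPM in WT and at 146, 158 and 142 CPM in G4 (log2 change 5.40 ± 0.27 SE). On chromosome 9 an MTA_Mm copy from 108653997 to 108654388, 1.8% diverged, lay beside the MT2_Mm copy of Arih2 shown above and rose from 1.02 ± 1.04 to 55.3 ± 4.97 CPM (5.61 ± 0.49 SE). On chromosome 13, in introns of the models Gm40977 and Gm48228, an ORR1A0 copy from 62112043 to 62112387 was at 0 in WT and at 55.1, 93.4 and 90 CPM in G4, at least 79.8-fold higher. An L1_Mus3 copy in the same models, from 62107164 to 62110203, stood at 1.04, 0 and 2.88 CPM in WT and at 127, 138 and 156 CPM in G4. An MT2A copy on chromosome 5 near C78283 rose from 6.8 to 68.1 CPM (3.31). These groups did not overlap.

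Of ERVK, an RLTR45-int copy on chromosome 15 from 9222375 to 9224279 was at 0 in WT and at 69.1, 57 and 69.3 CPM in G4, at least 63.9-fold higher, and an RLTR45-int copy on chromosome 4 had 2 counts in WT in all against 547 in G4 (ratio 260, 95% counting interval 71.5 to 2150). In the other direction, the IAPEz-int copy chr4:117192478-117198858 stood at 1120, 1120 and 1060 CPM in WT and at 2.94, 0 and 4.54 CPM in G4 (-8.67 ± 0.22 SE). That at chr11:85285923-85292328 stood at 81.9, 66.7 and 95 CPM in WT and at 0 in G4, at least 84.6-fold lower. Both copies are over 6000 bp long and 2.2% diverged, and their counts are not whole. ERV1 had a MuLV-int copy in an intron of Def8 (0, 2.09 and 0 CPM in WT and 178, 147 and 133 CPM in G4) and, among the falls, LTRIS2 on chromosome 3 (79.3 to 1.15 CPM) and MuRRS-int on chromosome 5, which was at 66.3 CPM in WT and at 0 in G4 (at least 68.8-fold lower).

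**Figure D5:**
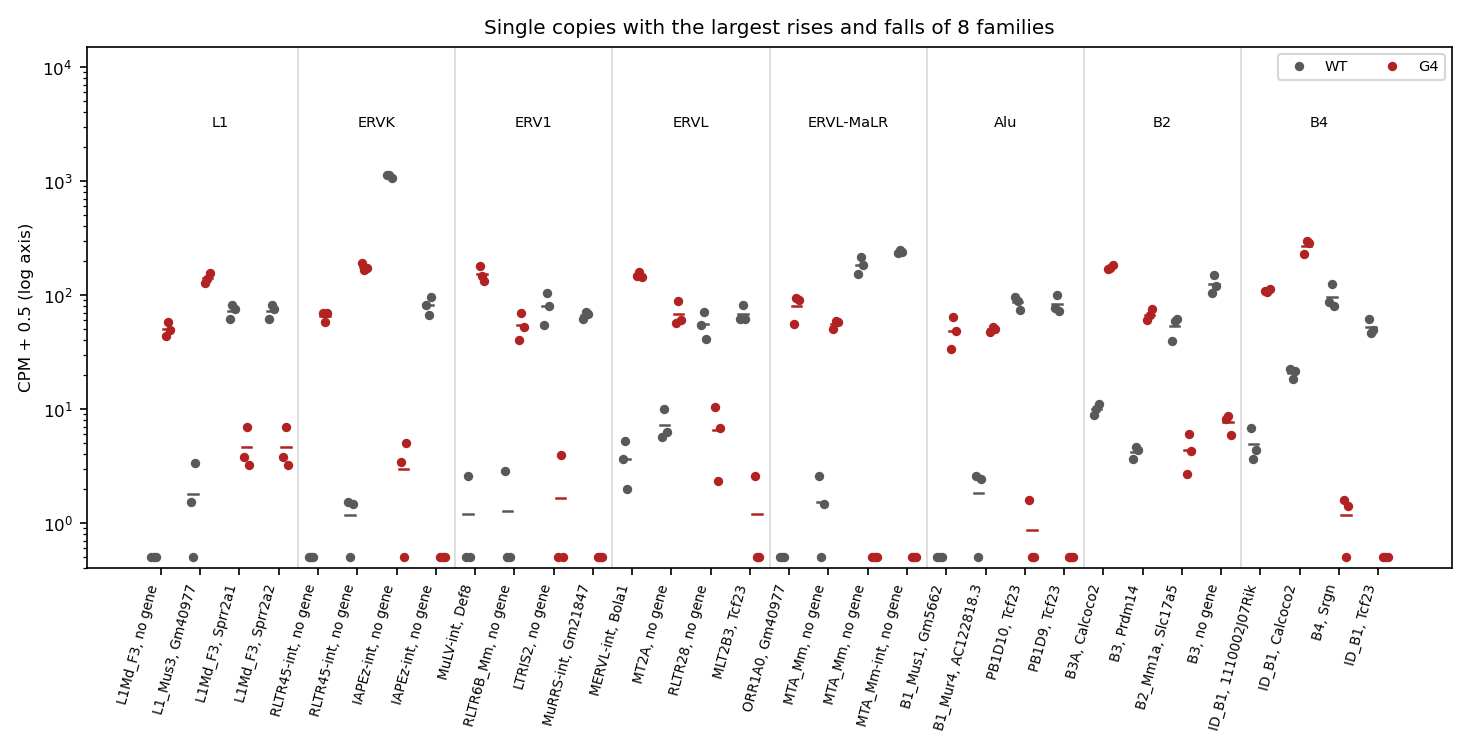
CPM plus 0.5 (log axis) in each library for the 2 largest rises and 2 largest falls among single copies of 8 families, drawn as points for single libraries and lines for means (WT grey, G4 red, n = 3 each), and the overlapping gene (no gene where there is none). Points at 0.5 are libraries with 0 counts; the IAPEz-int copy with 1060 to 1120 CPM in WT has the highest level.

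Of the SINE copies named by this rule most lay in exons, as did 72.7% of all tested SINE copies. A B3A copy and an ID_B1 copy in exons of Calcoco2, an autophagy receptor, stood at 8.35, 9.42 and 10.6 CPM and at 21.9, 17.8 and 21.2 CPM in WT, and at 170, 173 and 183 CPM and at 230, 297 and 285 CPM in G4. A B3 copy in an exon of Prdm14, a regulator of naive pluripotency and germ cells, rose from 3.72 ± 0.538 to 66.7 ± 7.66 CPM (4.12), an ID_B1 copy in 1110002J07Rik from 4.42 to 109 CPM (4.59), a B1_Mur4 copy in AC122818.3 from 1.34 to 49.7 CPM, and a B1_Mus1 copy in Gm5662 was at 0 in WT and at 48 CPM in G4 (at least 48.1-fold higher). All readings of a gene here come through its repeat copies.

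Among the falls, 4 copies of 3 families shared the gene Tcf23 on chromosome 5, which encodes a bHLH factor: PB1D10 (86.3 to 0.367 CPM), PB1D9 (82.6 CPM to 0, at least 85.3-fold lower), MLT2B3 (67.6 to 0.694 CPM) and an intronic ID_B1 (51.9 CPM to 0, at least 53.7-fold lower). A B4 copy in Srgn, which encodes a secreted proteoglycan core, fell from 96.3 to 0.667 CPM (-6.97) and a B2_Mm1a copy in an intron of Slc17a5, a lysosomal sialic acid exporter, from 52.9 to 3.85 CPM. On chromosome 11 a B3 copy (124 to 7.12 CPM, -4.10) and an RLTR28 copy (55.1 to 6.01 CPM, -3.22) lay 409 and 10 bp downstream of B4galnt2. On chromosome 13 an MTA_Mm copy of 184 CPM in WT and the adjoining MTA_Mm-int copy of 240 CPM, far from genes, were at 0 in G4, at least 191-fold and 249-fold lower. The L1Md_F3 pair in introns of Sprr2a1 and Sprr2a2 had nearly identical values in all libraries (72.2 CPM each in WT, 4.14 and 4.13 CPM in G4), so their reads are shared and they count as a single observation.

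Genes that act on repeats went both ways. Of 32 genes listed under repeat silencing 29 could be read, 19 were tested, 8 rose and 4 fell, where 48% of all genes tested were called. The list is not of silencers alone, and the 8 rises include Tet1 (0.955) and Tet2 (0.925), which act against DNA methylation. Suv39h1, an H3K9 methyltransferase, stood at 326, 386 and 439 CPM in WT and at 89.2, 89.7 and 78.3 CPM in G4 (log2 change -2.16 ± 0.12 SE, edgeR adjusted p = 1.93e-21), and Cbx3, a reader of H3K9 methylation, at 15.7, 10.5 and 12.5 CPM and at 2.2, 5.49 and 0.9 CPM (-2.11 ± 0.58 SE). Smarcad1, a remodeller that acts with H3K9 methylation in ESCs, rose from 21.8 ± 4 to 46.9 ± 4.52 CPM (1.11). The groups did not overlap in any of the 3. The summed level of the list was 4020 to 4220 CPM in WT and 4100 to 4220 CPM in G4. Of 9 tested p53 targets 1 rose and 7 fell (48% called over all genes), with Eda2r, a receptor of the TNF receptor superfamily, going from 361 ± 43.9 to 103 ± 6.26 CPM (-1.80), Ccng1, cyclin G1, from 1750 to 774 CPM (-1.18) and Trp53inp1 from 250 to 137 CPM (-0.86).

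The markers of cell types were read in the same way. Of the primitive endoderm list Col4a2, a chain of basement membrane collagen, stood at 3450, 3550 and 3470 CPM in WT and at 80.4, 87 and 99.9 CPM in G4 (-5.28 ± 0.09 SE, edgeR adjusted p = 3.27e-46), and the transcription factors Gata4 (744 to 19.5 CPM, -5.22) and Sox7 (261 to 7.44 CPM, -5.12) fell likewise. The G4 libraries were at most at 99.9 CPM for Col4a2 and 25.6 CPM for Gata4. Of the ESC list Tdgf1, a Nodal co-receptor, stood at 4190, 4250 and 4510 CPM in WT and at 15400, 18700 and 17200 CPM in G4 (1.99 ± 0.06 SE), Tfcp2l1 rose from 1270 to 4160 CPM (1.71) and Esrrb from 3.05 to 22.3 CPM (2.83), the last pair being transcription factors of naive pluripotency. Of the feeder list Col1a1, a fibroblast collagen, rose from 43.8 to 87.7 CPM (1.00). Over all 4429 genes tested the median log2 fold change was 0.06, against 1.64 in the ESC list, -5.17 in the primitive endoderm list, -0.64 in the p53 list and 0.30 in the silencing list. These list medians rest on 6, 4, 9 and 19 tested members. The lists were chosen with earlier results of these data known, so the medians only describe them and no conclusion is drawn from the comparison.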

How the data were processed

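The authors deposited estimated counts of reads per repeat copy, 1 column per library, and a table of normalized signal that was not used here. Per the labels and the study's methods, reads were checked with FastQC 0.11.9 and aligned to mm10 with STAR 2.5.3a, and featureCounts is named. Counts of 55092 copies were not whole in some library, and how reads with several placements were divided was not stated in the sources used here. Class, family, divergence and strand came from the copy identifiers, with "?" removed from family names.

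The Control columns stood for WT. With bedtools 2.31.1 copies were placed against 55536 GENCODE M21 gene models (exon: a share of at least 0.5 of the copy, near: within 5000 bp, far: beyond). After rounding, low counts were removed by filterByExpr, TMM set the scaling (factors 0.968 to 1.04), and copies, sums and genes were tested with edgeR 4.0.16 (R 4.3.3) by the quasi-likelihood test over all 9 libraries, with Benjamini-Hochberg adjustment and a threshold of 0.05. The common dispersion was 0.0191 for copies and 0.00976 for genes. Ratios within a family were tested with limma 3.58.1 on the log2 ratio of counts plus 0.5, where both parts had a mean of at least 50 counts. DESeq2 1.42.0 served as an alternative. In data simulated for 13278 copies with a common dispersion, 100 copies were changed 2-fold and 100 were changed 4-fold. Of these 44% and 89% were called. In the real data 42.5% of the tested copies were called, so these rates need not hold there.

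The copies named were the 2 largest rises and 2 largest falls in each of 8 families among called copies whose groups did not overlap and whose mean was at least 50 counts a library in the higher group. Bins, ratios and genes named were the largest called ones and those of the main families, and further bins that complete a profile, subfamilies and examples were chosen after their values were seen. Members and gene lists were chosen with earlier results of these data known. Library totals were 918879 to 1073243 counts, and intervals and floors (3 counts) cover counting error only. Same-numbered G4 and WT libraries did not deviate together (r = 0.0139, 0.0199 and -0.000325), so the numbers were not taken as pairs.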

Additional observations from a re-analysis of the deposited data

How the results depend on the processing

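Over 1851 recomputed values of 128 named results, 1750 were unchanged, 51 lost the call, 14 gained it and 36 changed sign. Unchanged values kept their side of the threshold and, where called as reported, their direction. A change of sign was counted only for results called as reported. Leaving out single libraries gave 759 of the unchanged values. Far from genes 32 were unchanged, 13 changed sign, 2 lost the call and 3 gained it. Outside exons 57 were unchanged, 7 changed sign and 11 lost the call. With whole values 51 were unchanged, 9 changed sign, 6 lost the call and 1 gained it. Named results not tested in a setting, such as single copies without whole values, were not counted there. Where a value changed, the cause was not tested. Leaving out each library in turn gave 5122 to 5605 called copies, 18 to 22 families, 77 to 79 divergence bins, 50 to 62 length bins, 55 to 65 position sums, 1938 to 2082 genes, 71 to 81 divergence ratios, 49 to 52 length ratios, 13 to 16 strand ratios and 17 to 22 orientation ratios, and differences in class share of -0.203 to -0.173 (DNA), 0.375 to 0.575 (LINE), -2.64 to -2.24 (LTR) and 2.07 to 2.28 percentage points (SINE). With the replicate number as a block 5465 copies, 19 families, 79 divergence bins, 64 length bins, 60 position sums, 2074 genes, 75 divergence ratios, 53 length ratios, 16 strand ratios and 20 orientation ratios were called. The same numbers did not pair the samples.

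With a fold over 2 and an unadjusted p under 0.05, 3 families, 11 divergence bins, 11 length bins, 9 position sums and 1201 genes passed. The 3 families were MuDR, MULE-MuDR and Dong-R4. Over copies more than 5 kb from genes 501 copies, 11 families (9 higher), 49 divergence ratios, 33 length ratios and 6 strand ratios were called. Outside exons these were 2450 copies, 6 families (4 higher), 33 length ratios and 6 strand ratios, and, chosen after seeing the data, 32 divergence bins and 23 length bins. Copies with whole values gave 3647 calls, 35 length ratios and, chosen after seeing the data, 35 length bins. Without the leading copy 12 families were called, 2 of them higher. With 3 divergence bins 34 bins and 29 ratios were called, and with 3 length bins 37 and 24. The crossing of divergence and length (53 called) and the splits within subfamilies by divergence (184 called) and length (147 called) were also chosen after seeing the data.

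Among results called as reported, signs changed as follows. Far from genes the log2 changes were 0.23 for hAT-Charlie, 0.37 for hAT-Tip100, 0.62 for ID and 0.40 for MIR. The sums of B4 (0.58) and L1 (0.11), below 0 and not called as reported, were called higher there. Ratios there were 1.31 for ERV1 at 2 to 5%, 0.069 for ERVK under 2%, -0.079 for ERVK at 10 to 15% and 0.62 for ERV1 at 6000 bp and over, and strand ratios were 1.62 for ERV1, -0.18 for B4, 0.10 for MIR, 0.002 for Alu and -0.088 for L1. Outside exons hAT-Tip100 had 0.25, its ratio at 25 to 30% was -0.49, ID at 30% and over had -0.042, ERV1 had 0.42 at 2 to 5% and 0.23 at 6000 bp and over, and strand ratios were 0.57 for hAT-Tip100 and 0.56 for ERV1. With whole values ERV1 had 0.13, ERVK 0.19 and the ratios were 0.44 for ERVK at 2 to 5%, 0.15 for L1 under 2%, 0.41 for ERVK under 2%, 0.05 for L1 at 6000 bp and over, 0.16 for ERVK at 1000 to 3000 bp, -0.11 for ERVL-MaLR at 1000 to 3000 bp and 0.063 for the strand of Alu. Without the leading copy the ratios were -0.22 for hAT-Tip100 at 25 to 30%, 0.074 for ERV1 at 2 to 5%, -0.51 for Gypsy at 100 to 200 bp and 0.024 for ERV1 at 6000 bp and over, and strand ratios were 0.49 for hAT-Tip100, 0.34 for ERV1 and 0.036 for MIR. Depth limited the test to 13278 of 623916 copies.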
